A study of Mus musculus with 18 samples.

Results

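The comparison set 16aOHE (16-alpha-hydroxyestrone) against E2 (estradiol) in mouse cells that had received a scrambled, non-targeting siRNA. It used 3 libraries per estrogen out of 18 in the series, and 11846 of the 15288 genes in the expression table, those with a mean of at least 1 CPM (reads per gene scaled to the same total in each library) over the 6 libraries. The other 3442 genes were below that minimum in these cells and were not tested. The cells of the 16aOHE group had been given 1 uM 16aOHE for 24 hours and those of the E2 group 1 uM E2 for the same time, in 5% serum, beginning a day after lipid transfection. Scrambled siRNA, the lipid reagent and the serum were thus common to both groups, and also to a vehicle group of 3 libraries that is given as a level beside them. A parallel set of 3 16aOHE and 3 E2 libraries came from cells that received siRNA against CYP1B1 in place of the scrambled one. The labels name cultured pulmonary microvascular endothelial cells, the series title names pulmonary vascular smooth muscle cells, and neither gives a mouse strain, an age or the number of cultures behind the 3 libraries of a group. The p-values therefore measure only the spread between these libraries, which may be technical.

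Estradiol acts mainly by binding the nuclear estrogen receptors encoded by Esr1 and Esr2, which then bind DNA or other transcription factors, and by faster signalling from receptors at the membrane. 16aOHE is a metabolite of estrone that carries an extra hydroxyl group and keeps the ketone of estrone where estradiol has a hydroxyl, and it is a known estrogen receptor agonist. In the lung circulation, CYP1B1 oxidizes estrogens, and its activity and 16aOHE have both been studied in pulmonary arterial hypertension. Estrogens can also be oxidized to reactive quinones, and genes of the antioxidant, metal and stress responses were read from lists of their own beside the estrogen lists.

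In 16aOHE cells, relative to E2 cells, 2 metallothioneins, 18 of 28 genes of the ATF4 and endoplasmic reticulum stress list, 12 of 22 NRF2 target genes and 12 of 30 glycolysis and hypoxia genes were lower. In the opposite direction, 22 of 38 TGF-beta and matrix genes, 10 of 23 immediate early genes and 7 of 11 mesothelial and epithelial markers were higher. Over all genes, 2179 of 11846 were called, that is, passed an adjusted p of 0.05 in limma, which is 18.4%. Of these, 803 were higher in 16aOHE cells (6.78% of all tested) and 1376 were lower (11.6%). For most genes the size was small: the median absolute log2 change of a called gene was 0.228 on the log2(CPM + 1) scale and the 90th percentile was 0.437. In 4028 genes (34.0%) the 3 libraries of one group did not overlap those of the other, and 2112 of the called genes (96.9%) were among them. Only 85 genes (0.718%) were called and differed by at least 1.5-fold on that scale, and 6 (0.0507%) by at least 2-fold. The 6 were Mt2 and Mt1, lower, and Krt18, Edn1, Plxnb3 and Gm6093, higher. Plxnb3 and Gm6093 lay outside the rule for named genes and are named after their values were seen. Plxnb3, which encodes a semaphorin receptor, averaged 6.18 ± 0.473 CPM in 16aOHE cells and 2.13 ± 0.631 CPM in E2 cells (SD, n = 3 each), and Gm6093, a predicted gene, 5.76 ± 1.58 and 1.31 ± 0.350 CPM in the same order.

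The split between higher and lower genes depended on the scaling between libraries, since the median log2 change over all genes was -0.03 as deposited. As deposited, 36.9% of called genes were higher in 16aOHE cells, against 55.8% after rescaling by median-of-ratios factors (1181 higher and 936 lower) and 49.3% after quantile normalization (975 higher and 1001 lower). Counts for each list below are read against the 6.78% higher and 11.6% lower over all genes.

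**Figure D1:**
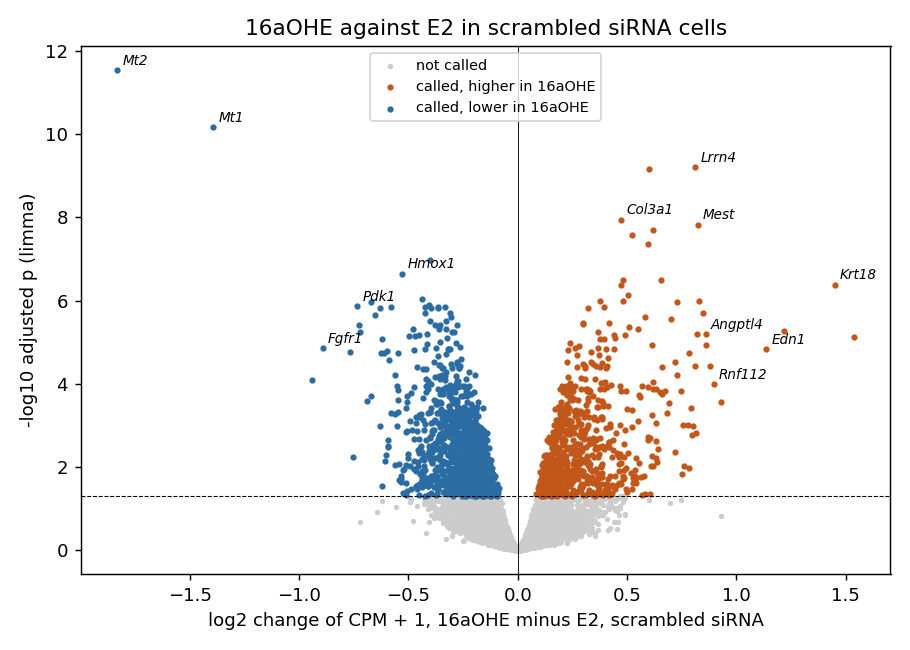
Log2 change of CPM + 1, 16aOHE minus E2 (horizontal), against -log10 of the adjusted p from limma (vertical, dashed line at 0.05), 1 point per tested gene, with 3 libraries per group. Mt2 and Mt1 lie far to the lower side, at -1.83 and -1.39, while most of the 2179 called genes lie within 0.437 of zero.

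The libraries were deep enough to read single genes at low levels: 1 CPM stood for about 23.4 to 38.5 reads in the 16aOHE libraries and 22.8 to 24.6 reads in the E2 libraries. Log-scale correlations were 0.9965 to 0.9977 over the 6 within-group pairs and 0.9928 to 0.9953 over the 9 pairs that joined the groups. In a principal component analysis of the 9 scrambled siRNA libraries, the first component (43.3% of variance) placed the 16aOHE libraries at -3.54 to -2.03, the E2 libraries at 12.55 to 14.11 and the vehicle libraries at -10.76 to -9.36. The 16aOHE libraries thus lay between the other groups and nearer to vehicle. On the second component (13.4%) they ranged from -11.4 to -2.59, with library 1 the farthest out.

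**Figure D2:**
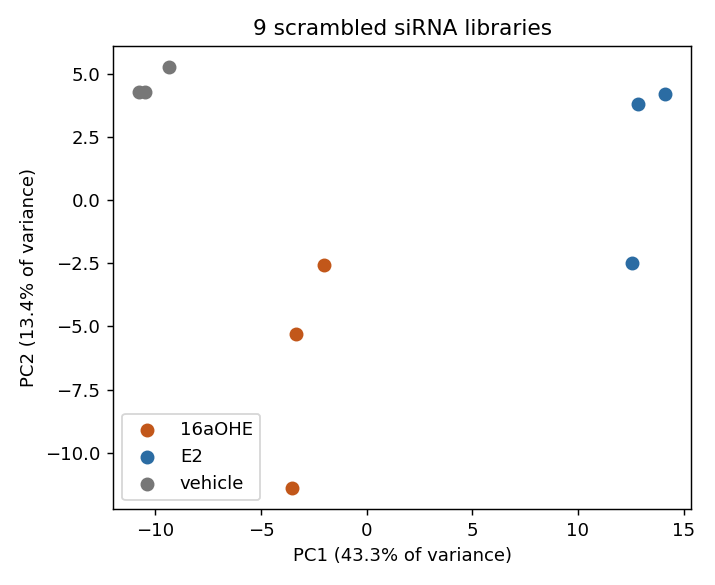
First and second principal components of log2(CPM + 1) in the 9 scrambled siRNA libraries, coloured by group (16aOHE, E2, vehicle). The 3 groups do not overlap on the first component, where 16aOHE lies between E2 and vehicle.

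Pecam1, Vwf and Myh11, which define the labelled cell types, were at or near the floor in both groups. Pecam1, the junction protein of endothelium, was at 0.104, 0.078 and 0.0428 CPM in the 16aOHE libraries and listed at 0 in all 3 E2 libraries, and Vwf, the endothelial clotting factor, was at no more than 0.214 CPM in any of the 6. Cdh5, Cldn5, Erg and Emcn were not analysed here. Of the 26 endothelial markers listed, 8 passed the minimum. Myh11, the smooth muscle myosin, averaged 0.0862 CPM in 16aOHE cells and 0.115 CPM in E2 cells. Other smooth muscle markers were far above the floor, and 7 of 13 listed passed the minimum. Cald1 averaged 979 CPM in 16aOHE cells and 1002 CPM in E2 cells, and Tpm2 138 and 129 CPM. The leukocyte marker Ptprc reached at most 0.104 CPM, but 3 of 13 listed leukocyte markers passed the minimum. Among them, Cd14 averaged 21.8 CPM in 16aOHE cells and 20.6 CPM in E2 cells, and Mpeg1 14.8 and 15.7 CPM. Mesothelial markers were at high levels. The mesothelial and epithelial list summed to 5347 to 5566 CPM in 16aOHE libraries and 4616 to 4782 CPM in E2 libraries. Upk3b was at 1003 CPM in 16aOHE cells and 772 CPM in E2 cells, and Wt1 at 311 and 271 CPM in the same order. Msln, given below, was above both. The cells are therefore called by their treatments here and not by a cell type.

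The promoters of 5 genes are shown, picked by hand from the genes named below from the metallothionein and ATF4 lists. All 5 were called lower and hold a match of the letters marked in capitals, so they do not stand for their lists. Atf4, Ddit3, Psat1 and Phgdh, also named below, had 0 matches of the C/EBP-ATF letters and are not shown. Whether the activity of MTF1 or ATF4 differed between the groups was not tested. Mt1 and Mt2 are the classic targets of the zinc sensor MTF1, which binds metal response elements, and Chac1, Trib3 and Slc7a11 are classic targets of ATF4, which binds composite C/EBP-ATF elements. Each sequence runs 5′ to 3′ on the gene's strand, from 250 bases before to 50 bases after the start, from RefSeq on GRCm38.p6. Capitals mark, for the metallothioneins, TGCACNC or TGCGCNC on either strand (4 matches in Mt2 and 3 in Mt1), and for the other genes TGATG, any base, AA and a further base on either strand (1 match each in Chac1 and Trib3 and 2 in Slc7a11).
Mt2, chr8:94172368-94172667, plus strand: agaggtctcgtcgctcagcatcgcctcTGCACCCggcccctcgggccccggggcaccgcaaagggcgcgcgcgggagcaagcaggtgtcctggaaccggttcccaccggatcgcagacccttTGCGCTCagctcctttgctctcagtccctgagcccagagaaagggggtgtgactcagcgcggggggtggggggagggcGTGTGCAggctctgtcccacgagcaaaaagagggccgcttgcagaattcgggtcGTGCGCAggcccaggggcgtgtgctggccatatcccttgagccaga
Mt1, chr8:94178839-94179138, plus strand: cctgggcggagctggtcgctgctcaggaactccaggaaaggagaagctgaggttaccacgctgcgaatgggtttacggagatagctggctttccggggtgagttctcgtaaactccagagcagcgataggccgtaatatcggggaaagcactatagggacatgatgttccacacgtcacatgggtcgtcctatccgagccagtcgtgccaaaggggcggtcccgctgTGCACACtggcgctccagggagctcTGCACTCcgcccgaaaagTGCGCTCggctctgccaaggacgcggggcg
Chac1, chr2:119350992-119351291, plus strand: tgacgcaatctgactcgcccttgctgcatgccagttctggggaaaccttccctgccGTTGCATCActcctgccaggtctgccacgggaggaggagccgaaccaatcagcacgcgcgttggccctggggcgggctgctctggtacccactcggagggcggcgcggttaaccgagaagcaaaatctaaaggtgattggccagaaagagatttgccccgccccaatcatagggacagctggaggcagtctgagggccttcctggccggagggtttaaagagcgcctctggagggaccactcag
Trib3, chr2:152344011-152344310, minus strand: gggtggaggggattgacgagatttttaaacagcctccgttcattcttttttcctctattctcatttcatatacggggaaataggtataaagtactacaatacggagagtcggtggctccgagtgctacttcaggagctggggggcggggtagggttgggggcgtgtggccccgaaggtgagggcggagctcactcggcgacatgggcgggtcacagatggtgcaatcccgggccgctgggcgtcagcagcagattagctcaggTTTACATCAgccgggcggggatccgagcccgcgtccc
Slc7a11, chr3:50443564-50443863, minus strand: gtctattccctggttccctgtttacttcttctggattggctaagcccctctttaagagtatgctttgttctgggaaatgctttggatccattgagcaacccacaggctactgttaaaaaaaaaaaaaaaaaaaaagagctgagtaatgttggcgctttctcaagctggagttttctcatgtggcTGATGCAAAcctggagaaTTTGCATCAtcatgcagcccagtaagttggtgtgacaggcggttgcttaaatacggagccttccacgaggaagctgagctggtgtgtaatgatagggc

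Of the tested genes, 9333 had a promoter of this length. The metal response letters were found in 36.8% of them, in 34.9% of the 607 belonging to genes called higher and in 37.5% of the 1080 belonging to genes called lower, so that the letters alone are common. The C/EBP-ATF letters were found in 2.0% of all, in 2.47% of genes called higher, in 2.04% of genes called lower, and in 7 of the 26 promoters of the ATF4 list (Asns, Atf3, Chac1, Herpud1, Nupr1, Slc7a11 and Trib3). Of those 7 genes, 6 were called lower in 16aOHE cells, while Atf3 had a log2 change of 0.12 and was not called. Over the whole ATF4 list 18 of 28 tested genes were called lower, against 11.6% of all tested genes. Genes of the list without a match were also called lower, among them Atf4, Ddit3, Stc2 and Vldlr, while Psat1 and Phgdh, also without a match, were not called. The full palindromic estrogen response element, without a mismatch, was in 0 of the 9333 windows. A match of letters is a description of the window only.

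Metallothioneins, small proteins that bind zinc and copper, had the lowest log2 changes of all tested genes. Mt2 was at 12.2, 13.1 and 10.9 CPM in 16aOHE cells, against 41.7, 48.1 and 46.9 CPM in E2 cells. The groups were far apart, and the 3 values of each lay close together. The mean in 16aOHE cells was 0.265 times that in E2 cells, a log2 change of -1.83 (95% interval -2.0 to -1.67, limma adjusted p = 2.88e-12). Mt1 was at 62.6, 71.0 and 66.0 CPM in 16aOHE cells, against 168, 170 and 191 CPM in E2 cells. Its log2 change was -1.39 (-1.55 to -1.24, limma adjusted p = 6.79e-11). The rule that picked the largest changes required groups without overlap for both genes. Vehicle cells averaged 10.9 CPM of Mt2 and 69.1 CPM of Mt1, levels close to those with 16aOHE. Both genes lie side by side on chromosome 8 of mm10, Mt2 at chr8:94172618-94173567 and Mt1 at chr8:94179089-94180327.

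Zinc transporters changed less. Slc30a1, which exports zinc and is induced with the metallothioneins by MTF1, was at 101, 103 and 104 CPM in 16aOHE cells, against 118, 117 and 122 CPM in E2 cells (log2 change -0.22, adjusted p = 0.000523). Slc39a10, a zinc importer, moved the other way, with 240, 259 and 243 CPM in 16aOHE cells against 177, 193 and 190 CPM in E2 cells (0.40, adjusted p = 1.48e-05). Neither pair of groups overlapped. Over the list of metallothioneins and zinc transporters, 1 of 9 tested genes was higher and 3 were lower, with a median of -0.09.

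**Figure D3:**
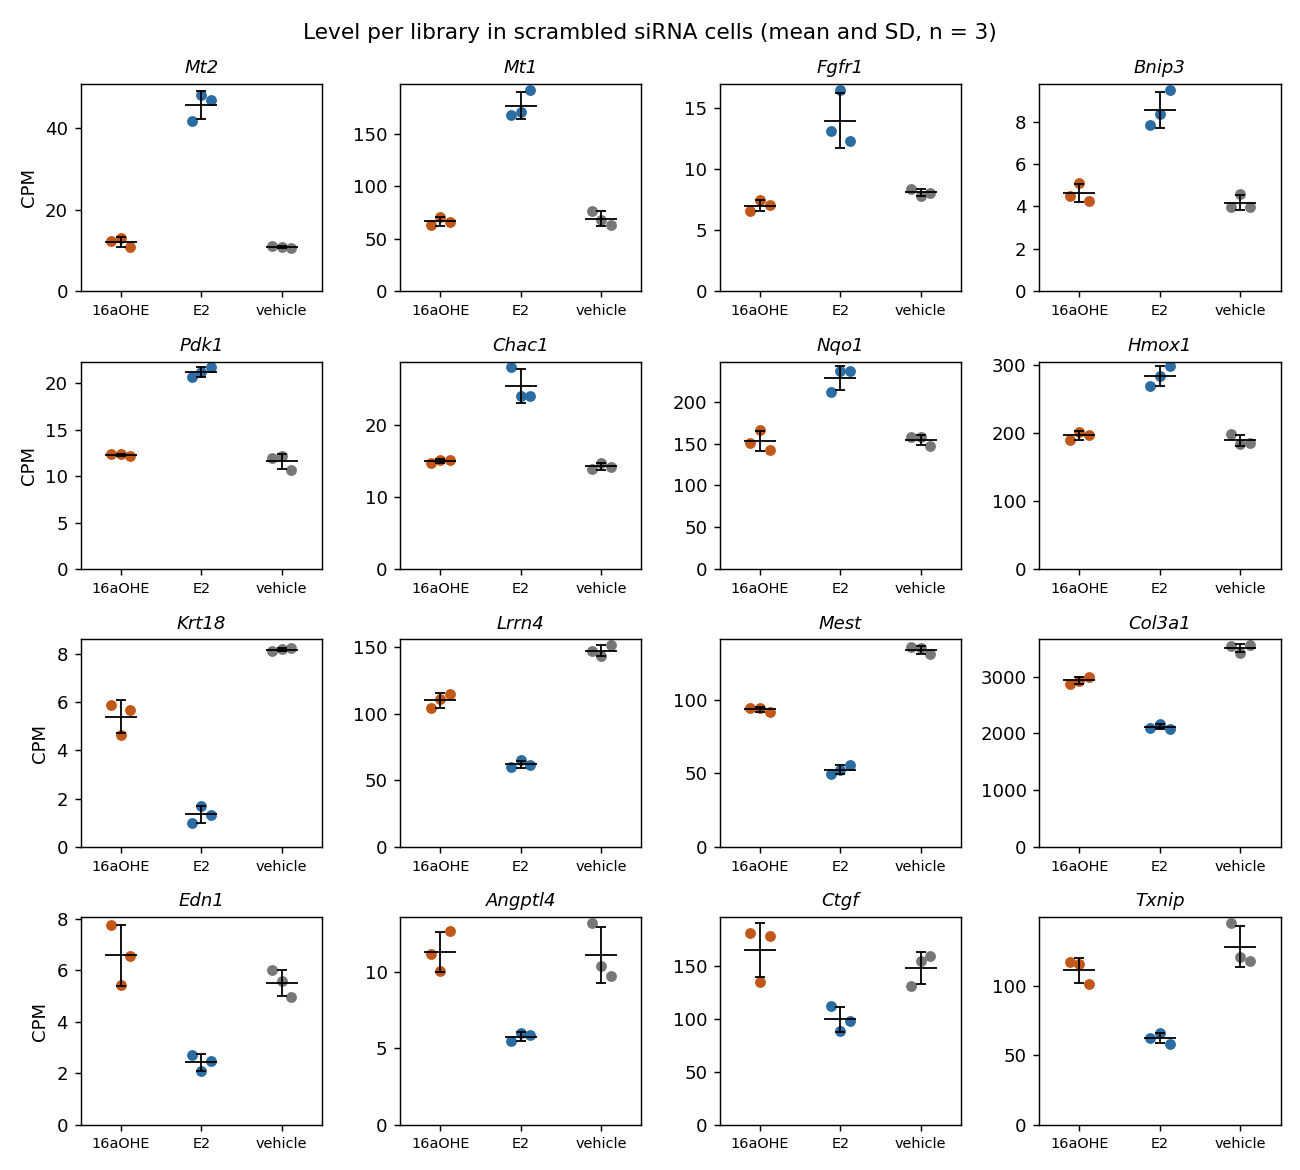
CPM per library (points, axes from 0) of 16 named genes in 16aOHE, E2 and vehicle cells with scrambled siRNA, with mean and SD, n = 3. For the upper 8 genes the E2 libraries lie above the other groups, as for Mt2 (12.1 CPM with 16aOHE, 45.6 CPM with E2), and for the lower 8 they lie below, as for Krt18 (5.39 CPM with 16aOHE, 1.35 CPM with E2).

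The list of ATF4 and endoplasmic reticulum stress genes held the response to amino acid shortage and to misfolded protein. Of its 28 tested genes 2 were higher and 18 lower in 16aOHE cells, with a median log2 change of -0.23 (16 lower after median-of-ratios rescaling and 16 after quantile normalization). Chac1, a glutathione-degrading enzyme, was at 14.7, 15.1 and 15.1 CPM in 16aOHE cells, against 28.0, 24.0 and 24.0 CPM in E2 cells (log2 change -0.72, adjusted p = 5.68e-06). Trib3, a pseudokinase that restrains AKT, was at 11.8, 12.5 and 12.7 CPM with 16aOHE, against 18.4, 19.5 and 20.3 CPM with E2 (-0.61, adjusted p = 1.81e-05). Aldh1l2, a mitochondrial folate enzyme, was at 20.3, 19.5 and 18.4 CPM with 16aOHE, against 34.1, 32.6 and 31.4 CPM with E2 (-0.72, adjusted p = 3.81e-06). In each of these genes every 16aOHE library was below every E2 library. For Chac1 and Aldh1l2 the rule that picked the largest changes required this.

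Atf4 and genes it is known to induce were among those called lower. Among genes named after their values were seen, the asparagine synthetase Asns averaged 56.2 ± 2.07 CPM in 16aOHE cells and 75.8 ± 4.37 CPM in E2 cells (SD, n = 3 each), the death-linked factor Ddit3 52.1 ± 1.55 and 72.5 ± 1.01 CPM, and Atf4 itself 208 ± 7.74 and 252 ± 12.2 CPM, all called lower. Psat1 and Phgdh, of the same list, were not called. Psat1 had 245 ± 3.69 CPM with 16aOHE and 246 ± 5.26 CPM with E2, and Phgdh 50.1 ± 4.02 and 49.1 ± 7.08 CPM. The 2 genes of the list called higher were chaperones of the endoplasmic reticulum, Hspa5 (log2 change 0.11, adjusted p = 0.0441) and Calr (0.17, adjusted p = 0.00178). Cytosolic aminoacyl-tRNA synthetases, some of which ATF4 also induces, did not move as a group: 2 of 20 were higher and 4 lower, with a median of 0.03. The 4 that were lower were Sars (236 ± 8.41 CPM with 16aOHE, 293 ± 2.26 CPM with E2), Aars, Cars and Nars, and 4 were also higher after median-of-ratios rescaling.

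NRF2 target genes encode enzymes of antioxidant defence, and 0 of 22 tested were higher in 16aOHE cells while 12 were lower (median -0.15, with 10 lower after median-of-ratios rescaling and 11 after quantile normalization). Nqo1, a quinone reductase that also reduces estrogen quinones, was at 151, 166 and 142 CPM in 16aOHE cells, against 212, 237 and 237 CPM in E2 cells (log2 change -0.58, adjusted p = 1.44e-06). Hmox1, which breaks down heme, was at 190, 202 and 197 CPM with 16aOHE, against 269, 283 and 299 CPM with E2 (-0.53, adjusted p = 2.24e-07). The cystine importer Slc7a11, which both NRF2 and ATF4 regulate and which stands in both lists, was at 31.4, 32.5 and 30.9 CPM with 16aOHE, against 45.5, 52.9 and 49.2 CPM with E2 (-0.62, adjusted p = 8.4e-06). None of these groups overlapped, and vehicle means were 155, 189 and 31.1 CPM for Nqo1, Hmox1 and Slc7a11. The iron-storage subunit Ftl1 was at 465, 447 and 477 CPM with 16aOHE, against 719, 513 and 701 CPM with E2 (-0.46, adjusted p = 0.00134), with E2 library 2 well below the other 2. Ftl1 has many processed copies in the mouse genome, so its reads may have been split between copies. Not every gene of the list moved: the thioredoxin reductase Txnrd1 had 524 ± 3.16 CPM with 16aOHE and 527 ± 1.13 CPM with E2 (SD, n = 3 each).

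Genes of glycolysis and the hypoxia response included 0 called higher and 12 called lower of 30 tested (median -0.13, with 10 lower after median-of-ratios rescaling and 15 after quantile normalization). Bnip3, a mitophagy receptor induced by hypoxia, was at 4.48, 5.12 and 4.28 CPM in 16aOHE cells, against 7.85, 8.35 and 9.51 CPM in E2 cells (log2 change -0.77, adjusted p = 1.69e-05). Pdk1, a kinase that inhibits pyruvate dehydrogenase, was at 12.4, 12.4 and 12.2 CPM with 16aOHE, against 20.7, 21.2 and 21.8 CPM with E2 (-0.74, adjusted p = 1.38e-06). Ndrg1, another gene induced by hypoxia and stress, was at 24.5, 26.0 and 26.0 CPM with 16aOHE, against 41.3, 38.4 and 40.3 CPM with E2 (-0.63, adjusted p = 1.51e-06). All 3 genes separated the groups without overlap, which the rule that picked the largest changes required. The glucose transporter Slc2a1 averaged 84.2 ± 1.62 and 109 ± 3.41 CPM in 16aOHE and E2 cells (-0.36, adjusted p = 1.51e-06). Epas1, which encodes the hypoxia factor HIF-2alpha and was not on the list, was at 31.1, 30.7 and 26.7 CPM with 16aOHE, against 48.0, 47.6 and 42.3 CPM with E2 (-0.62, adjusted p = 1.86e-05). The glycolytic enzyme Ldha, named after its values were seen, had 554 ± 18.4 CPM with 16aOHE and 551 ± 27.7 CPM with E2.

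Other genes with the lowest log2 changes belonged to separate processes. Fgfr1, a receptor for fibroblast growth factors, was at 6.53, 7.43 and 7.06 CPM in 16aOHE cells, against 13.1, 16.5 and 12.3 CPM in E2 cells (log2 change -0.89, adjusted p = 1.39e-05). Dbp, an output factor of the circadian clock, was at 36.8, 44.4 and 42.3 CPM with 16aOHE, against 66.2, 68.6 and 63.5 CPM with E2 (-0.67, adjusted p = 1.1e-06). Tef, of the same protein family (290 ± 10.8 and 360 ± 5.65 CPM in 16aOHE and E2 cells), and Bhlhe41, a clock repressor (12.7 ± 0.551 and 16.9 ± 0.762 CPM), were also called lower, and over the clock list 2 of 16 genes were higher and 4 lower. Uap1l1, related to the enzyme that makes UDP-GlcNAc, averaged 83.6 ± 9.44 and 132 ± 5.44 CPM, and Svop, related to a synaptic vesicle protein, 10.0 ± 0.365 and 16.6 ± 2.54 CPM. Among p53 target genes 1 of 20 was higher and 7 were lower (median -0.11), with Trp53inp1 at 689 ± 42.1 CPM in 16aOHE cells and 874 ± 21.8 CPM in E2 cells as the lowest log2 change, -0.34.

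Genes of matrix and TGF-beta signalling were higher in 16aOHE cells: 22 of 38 tested were called higher and 0 lower, with a median log2 change of 0.22 (25 higher after median-of-ratios rescaling and 21 after quantile normalization). Col3a1, a fibrillar collagen, was at 2874, 2932 and 3000 CPM in 16aOHE cells, against 2098, 2167 and 2083 CPM in E2 cells. Each group spanned a narrow range, and the log2 change was 0.47 (0.40 to 0.54, adjusted p = 1.15e-08). Col6a2, a chain of microfibrillar collagen VI, was at 169, 191 and 174 CPM with 16aOHE, against 110, 127 and 111 CPM with E2 (0.61, adjusted p = 1.14e-05). Vehicle cells averaged 3510 CPM of Col3a1 and 221 CPM of Col6a2, above both estrogens.

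The matricellular genes Ctgf and Cyr61, both targets of TGF-beta and of the YAP coactivator, were also higher. Ctgf was at 181, 135 and 178 CPM in 16aOHE cells, against 112, 88.0 and 98.3 CPM in E2 cells (log2 change 0.72, adjusted p = 2.95e-05). Cyr61 was at 280, 238 and 254 CPM with 16aOHE, against 174, 157 and 157 CPM with E2 (0.66, adjusted p = 3.18e-07). Library 2 was the lowest 16aOHE library for both genes and still lay above every E2 library. For Cyr61 the vehicle mean was 186 CPM, nearer to E2 than to 16aOHE. Tnc, another matricellular gene, was near the minimum, with 2.08 ± 0.213 CPM with 16aOHE and 1.12 ± 0.0935 CPM with E2 (0.54, adjusted p = 0.00607).

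The summed level of the fibroblast and pericyte markers was 5417 to 5779 CPM in 16aOHE libraries and 4042 to 4508 CPM in E2 libraries, with 3 of 6 tested markers higher and 1 lower. Much of that sum was Col1a1 and Col3a1, which also belong to the matrix list, while Pdgfra, a defining fibroblast receptor, had 3.77 ± 0.101 and 4.05 ± 0.578 CPM in 16aOHE and E2 cells and was not called. In bulk RNA, fewer cells of a type and less RNA per cell cannot be told apart, and the part of marker shifts in the matrix result was not tested. Acta2, the actin of smooth muscle and myofibroblasts, was at 27.0, 20.5 and 24.8 CPM with 16aOHE, against 15.9, 14.2 and 16.5 CPM with E2 (0.59, adjusted p = 0.000121). It was the only one of 7 tested smooth muscle markers called (2 were called after median-of-ratios rescaling), and the summed level of that list was 1228 to 1252 CPM with 16aOHE and 1222 to 1254 CPM with E2.

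Of the mesothelial and epithelial markers, 7 of 11 tested were higher and 0 lower (median 0.21), and their summed level was 5347 to 5566 CPM in 16aOHE libraries and 4616 to 4782 CPM in E2 libraries. Krt18, a keratin of simple epithelia and mesothelium, was at 5.87, 4.63 and 5.69 CPM in 16aOHE cells, against 1.01, 1.71 and 1.33 CPM in E2 cells. The lowest 16aOHE library was above the highest E2 library, and the log2 change was 1.45 (1.17 to 1.73, adjusted p = 4.12e-07). Lrrn4, a membrane protein of mesothelium, was at 104, 111 and 115 CPM with 16aOHE, against 59.9, 65.0 and 61.3 CPM with E2 (0.81, adjusted p = 6.28e-10). Krt14, a basal keratin, was at 13.2, 12.3 and 16.8 CPM with 16aOHE, against 6.71, 6.23 and 8.65 CPM with E2 (0.88, adjusted p = 3.85e-05). Krt19 averaged 466 ± 26.9 and 332 ± 9.67 CPM in 16aOHE and E2 cells (0.49, adjusted p = 6.75e-06). Msln, the surface protein that defines mesothelium, was not called, with 1660 ± 124 CPM in 16aOHE cells and 1585 ± 90.7 CPM in E2 cells. Epcam, Krt8 and Krt5 were below the minimum, and Sftpc and Muc16 were not analysed here.

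Of the 8 endothelial markers that passed the minimum, 4 were higher in 16aOHE cells and 0 lower, and the summed level of the list was 282 to 287 CPM in 16aOHE libraries and 252 to 257 CPM in E2 libraries. Mmrn2, a matrix protein of vessels, was at 3.96, 4.91 and 3.85 CPM with 16aOHE, against 2.54, 1.71 and 1.84 CPM with E2 (log2 change 0.79, adjusted p = 0.000383). Esam, a junction protein, was at 22.4, 22.1 and 23.1 CPM with 16aOHE, against 17.2, 14.6 and 15.2 CPM with E2 (0.50, adjusted p = 0.000414). Kdr, the main VEGF receptor, was the weakest of the 4: its adjusted p of 0.0479 became 0.0771, 0.0647 and 0.171 without 16aOHE library 1, 2 or 3, and 0.0834 and 0.225 without E2 library 2 or 3. Ptprb, a receptor phosphatase, had an adjusted p of 0.0186, which became 0.0792 without 16aOHE library 3, and 0.0565 and 0.07 without E2 library 2 or 3.

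**Figure D4:**
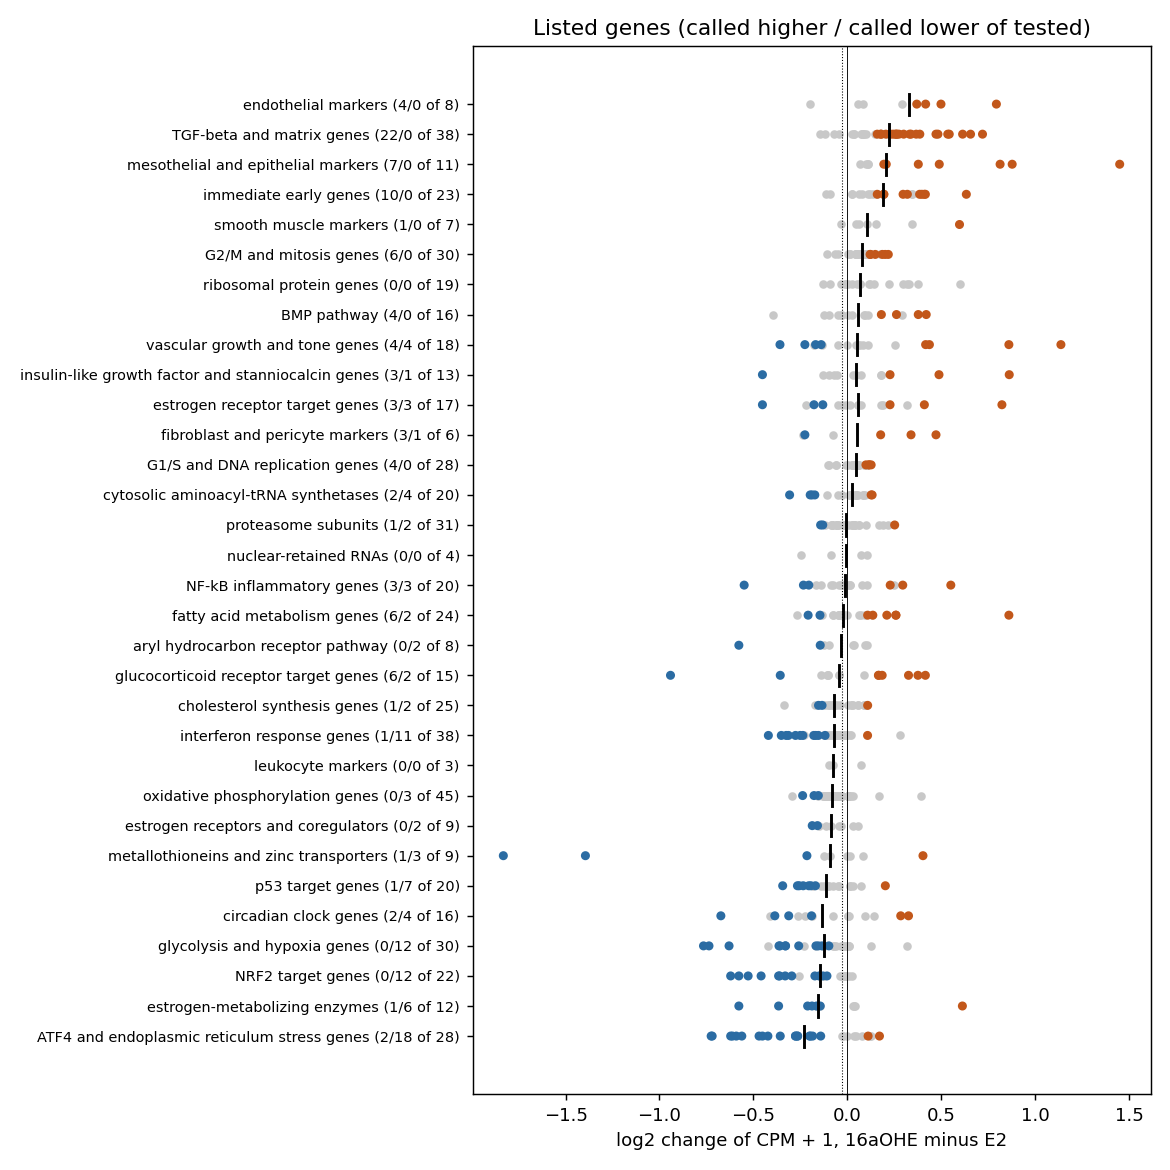
Log2 change of CPM + 1, 16aOHE minus E2, of every tested gene (points) in the 32 lists, with orange for called higher, blue for called lower and grey for not called. Black bars are list medians and the dotted line is the median of all genes, -0.03. The matrix list (22 higher, 0 lower of 38) and the ATF4 list (2 higher, 18 lower of 28) lie on opposite sides.

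Immediate early genes, which growth factors and serum induce within minutes, had 10 of 23 tested called higher and 0 lower in 16aOHE cells (median 0.19, with 11 higher under both other scalings). Dusp5, a phosphatase that switches off ERK, was at 16.5, 16.5 and 14 CPM with 16aOHE, against 9.78, 8.55 and 10.9 CPM with E2 (log2 change 0.63, adjusted p = 0.000132). Jun was at 161, 160 and 165 CPM with 16aOHE, against 121, 125 and 121 CPM with E2 (0.40, adjusted p = 1.44e-06). Myc, also a textbook estrogen target, was at 162, 139 and 149 CPM with 16aOHE, against 117, 111 and 109 CPM with E2 (0.41, adjusted p = 3.72e-05). Dusp1, an ERK and p38 phosphatase, averaged 23.4 ± 1.19 and 17.3 ± 0.947 CPM in 16aOHE and E2 cells (0.42, adjusted p = 0.00336). All 4 genes separated the groups.

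Genes of vessel growth and tone did not move one way as a list, with 4 of 18 higher and 4 lower, but included large single changes. Among the called genes of the list, the 4 higher had the largest absolute log2 changes. The 4 lower had smaller ones, and their values are not given here. Edn1, the precursor of the vasoconstrictor endothelin-1, was at 7.77, 5.41 and 6.54 CPM in 16aOHE cells, against 2.72, 2.08 and 2.48 CPM in E2 cells. The mean was 2.71 times as high with 16aOHE, with a log2 change of 1.14 (0.84 to 1.44, adjusted p = 1.48e-05), and vehicle cells averaged 5.52 CPM. Edn2, the precursor of endothelin-2, was not on the list. It was at 11.6, 12.4 and 11.8 CPM with 16aOHE, against 5.44, 6.39 and 7.24 CPM with E2 (0.82, adjusted p = 6.23e-06). Angptl4, a secreted inhibitor of lipoprotein lipase, was at 11.2, 10.1 and 12.7 CPM with 16aOHE, against 5.48, 5.99 and 5.87 CPM with E2 (0.86, adjusted p = 6.36e-06). Jag1, a Notch ligand, averaged 12.3 ± 1.92 and 8.79 ± 1.29 CPM in 16aOHE and E2 cells (0.44, adjusted p = 0.00395). The endothelin receptor genes were not analysed here.

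Several of the other genes with the highest log2 changes encode regulators of growth and metabolism. Pappa, a protease that frees insulin-like growth factors from their binding proteins, was at 20.1, 21.0 and 20.2 CPM in 16aOHE cells, against 9.69, 12.4 and 10.5 CPM in E2 cells (log2 change 0.86, adjusted p = 1.19e-05). Txnip, which binds thioredoxin and limits glucose uptake, was at 117, 116 and 101 CPM with 16aOHE, against 62.5, 65.8 and 58.4 CPM with E2 (0.83, adjusted p = 1.05e-06). Mest, an imprinted gene of the hydrolase family, was at 94.6, 94.4 and 91.7 CPM with 16aOHE, against 49.4, 52.5 and 55.6 CPM with E2 (0.82, adjusted p = 1.52e-08). In all 3 genes the groups did not overlap, which the rule that picked the largest changes required. Adcyap1r1, the receptor of the neuropeptide PACAP, averaged 22.0 ± 1.28 and 11.8 ± 1.19 CPM in 16aOHE and E2 cells. Rnf112, a ubiquitin ligase, averaged 8.92 ± 1.13 and 4.32 ± 0.411 CPM, and Gata5, a transcription factor of heart and vessels, 10.0 ± 0.547 and 5.34 ± 0.205 CPM.

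The estrogen receptor gene Esr1 was at 15.9, 15.8 and 15.6 CPM in 16aOHE cells, against 14.7, 19.7 and 17.3 CPM in E2 cells, and the groups overlapped. Its log2 change was -0.11 (95% interval -0.31 to 0.09, adjusted p = 0.45). Esr2 averaged 0.133 CPM with 16aOHE and 0.125 CPM with E2, and the membrane receptor gene Gper1 0.00876 and 0.0722 CPM, so both were below the minimum and were not tested. Over the 9 tested receptors and coregulators 0 were higher and 2 lower, Esrra and Pgrmc1, and 1 was lower under both other scalings. Esrra, an orphan receptor, had an adjusted p of 0.021 that became 0.0651 after median-of-ratios rescaling, 0.0707 after quantile normalization, 0.0937 without 16aOHE library 1 and 0.138 without E2 library 3. Pgrmc1, a heme-binding membrane protein, had an adjusted p of 0.00975 that became 0.0562 without 16aOHE library 3 and 0.0532 without E2 library 3.

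Genes listed as estrogen receptor targets moved both ways, with a median of 0.05. Of 17 tested, 3 were higher (Mest, Myc and Igfbp4) and 3 lower (Stc2, Ctsd and Ccnd1). The list, Mest included, was written with earlier results of these data known. Greb1 was below the minimum in both groups, and Pgr and Tff1 were not analysed here. Stc2, a secreted glycoprotein that inhibits Pappa, was at 11.5, 14.8 and 12 CPM in 16aOHE cells, against 16.9, 17.8 and 18.5 CPM in E2 cells (log2 change -0.45, adjusted p = 0.00208). Vehicle cells averaged 5.60 CPM of Stc2, below both estrogens. Its change from vehicle was 1.05 with 16aOHE and 1.5 with E2, 2 values that share the vehicle libraries.

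Among estrogen-metabolizing enzymes, 1 of 12 tested was higher and 6 were lower (median -0.15, with 5 lower under both other scalings). Cyp1b1, the gene targeted in the parallel set of cells, was at 106, 108 and 105 CPM in 16aOHE cells, against 117, 119 and 117 CPM in E2 cells. The groups did not overlap, the log2 change was small, -0.14 (-0.22 to -0.07, adjusted p = 0.00564), and a 2-sided exact permutation test gave p = 0.1, the smallest that its 20 rearrangements allow. Vehicle cells averaged 92.2 CPM of Cyp1b1, so both estrogen groups were above vehicle. Hsd17b14, an enzyme that oxidizes estradiol to estrone, was at 6.84, 5.77 and 7.14 CPM with 16aOHE, against 3.90, 3.99 and 3.94 CPM with E2 (0.61, adjusted p = 0.000557). Hsd17b11, of the same enzyme family, averaged 44.4 ± 2.26 and 51.6 ± 1.57 CPM in 16aOHE and E2 cells (-0.21, adjusted p = 0.00711). In the aryl hydrocarbon receptor list, 0 of 8 genes were higher and 2 lower, Nqo1 and Cyp1b1, while Cyp1a1, its most inducible target, was below the minimum.

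Interferon response genes included 1 higher and 11 lower of 38 tested (median -0.07, with 8 lower after median-of-ratios rescaling and 12 after quantile normalization). Rsad2, the antiviral protein viperin, was at 108, 103 and 109 CPM in 16aOHE cells, against 155, 135 and 141 CPM in E2 cells (log2 change -0.42, adjusted p = 7.9e-05). Ifit2 was at 90.7, 92.3 and 89.2 CPM with 16aOHE, against 115, 117 and 111 CPM with E2 (-0.33, adjusted p = 8.15e-06). Both genes separated the groups. Inflammatory genes under NF-kB moved both ways, 3 of 20 higher and 3 lower. Tnfaip3, which dampens NF-kB, was at 63.3, 57.6 and 63.2 CPM with 16aOHE, against 44.9, 38.1 and 41.8 CPM with E2 (0.55, adjusted p = 4.96e-06), and vehicle cells averaged 41.9 CPM, close to E2. The chemokine Cx3cl1 was at 35.5, 38.1 and 32.8 CPM with 16aOHE, against 53.8, 54.6 and 48.5 CPM with E2 (-0.55, adjusted p = 1.81e-05).

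Glucocorticoid receptor target genes moved both ways, with 6 of 15 higher and 2 lower. Klf15, a metabolic transcription factor, was at 1.46, 1.98 and 1.84 CPM in 16aOHE cells, against 3.51, 4.89 and 4.54 CPM in E2 cells (log2 change -0.94, adjusted p = 8.18e-05). Errfi1, which inhibits the EGF receptor, averaged 48.8 ± 1.78 and 37.4 ± 2.06 CPM in 16aOHE and E2 cells (0.38, adjusted p = 3.89e-05). Fatty acid metabolism genes had 6 of 24 higher and 2 lower, among them the desaturase Scd1 with 734 ± 22.6 and 613 ± 2.03 CPM and the lipid droplet protein Plin2 with 129 ± 0.561 and 107 ± 3.07 CPM in 16aOHE and E2 cells. Of the BMP pathway genes, 4 of 16 were higher and 0 lower. Gdf6, a BMP ligand, averaged 25.7 ± 1.45 and 19.0 ± 1.5 CPM (0.42, adjusted p = 0.00107), while Bmpr2, the receptor mutated in heritable pulmonary arterial hypertension, had 114 ± 7.72 and 117 ± 11.7 CPM and was not called.

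The cell cycle genes that were called were all higher in 16aOHE cells: 4 of 28 G1/S and DNA replication genes (median 0.04) and 6 of 30 G2/M genes (median 0.08) were higher and 0 lower, and the G2/M count was 12 after median-of-ratios rescaling. Plk1, a mitotic kinase, was at 173, 159 and 167 CPM with 16aOHE, against 151, 136 and 141 CPM with E2 (log2 change 0.22, adjusted p = 0.00223), and Aurka, another mitotic kinase, averaged 101 ± 1.89 and 89.1 ± 4.23 CPM (0.19, adjusted p = 0.00182). Lists of cell machinery showed counts below the 18.4% over all genes: 3 of 25 cholesterol synthesis genes, 3 of 45 oxidative phosphorylation genes, 3 of 31 proteasome subunits and 0 of 19 ribosomal protein genes were called. The succinate dehydrogenase subunit Sdha had 229 ± 4.11 CPM with 16aOHE and 271 ± 5.55 CPM with E2 (-0.24, adjusted p = 7.75e-05) and kept its call in every alternative tried. The directions in these lists depended on scaling. The cholesterol list had 1 higher and 2 lower as deposited, 2 higher and 0 lower after median-of-ratios rescaling, and 0 higher and 1 lower after quantile normalization. The oxidative phosphorylation list went to 1 higher and 1 lower under both other scalings. In the same order, the proteasome list had 1 higher and 2 lower, 2 higher and 0 lower, and 1 higher and 2 lower. The ribosomal protein list went from 0 called to 3 higher and 0 lower after median-of-ratios rescaling, and to 2 higher and 1 lower after quantile normalization.

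Cells with siRNA against CYP1B1 gave the same comparison in libraries that share none with the scrambled set. Both comparisons came from 1 fit with a spread per gene shared by all 18 libraries, so their calls are not independent. The targeted RNA was only modestly lower in them. Cyp1b1 averaged 90.1 ± 1.39 CPM with 16aOHE and 103 ± 1.95 CPM with E2, against 106 ± 1.25 and 118 ± 1.06 CPM with scrambled siRNA. The level of the CYP1B1 protein was not tested. In the siCYP1B1 cells, 2167 of 11846 genes were called (18.3%), 778 higher and 1389 lower with 16aOHE than with E2. Both sets called 1326 genes, 60.9% of the scrambled calls and 61.2% of the siCYP1B1 calls, and 1325 of them had the same sign. The log2 changes of 2140 of the 2179 genes called in scrambled cells (98.2%) had the same sign in siCYP1B1 cells, against 76.5% of all tested genes. Across the 11846 genes, which are not independent replicates, Pearson's r was 0.702 and Spearman's rho 0.659.

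The genes with the lowest and highest changes can be set side by side in both sets. Mt2 had a log2 change of -1.88 there, against -1.83 with scrambled siRNA, and Mt1 -1.21 against -1.39. Chac1 had -0.80 against -0.72, Hmox1 -0.51 against -0.53, Col3a1 0.62 against 0.47 and Lrrn4 0.92 against 0.81, each called in both. Krt18 had 0.98 with siCYP1B1 against 1.45 with scrambled siRNA, and Edn1 0.85 against 1.14, also called in both. Some genes of the immediate early list had smaller values, 0.20 against 0.63 for Dusp5 and 0.14 against 0.41 for Myc, and neither was called in siCYP1B1 cells. The difference between the siRNAs had a limma adjusted p of 0.989 for both genes. Jun, of the same list, had 0.29 against 0.40 and was called in both sets.

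A test of the difference between the 2 siRNAs, the interaction term in limma, called 0 genes at an adjusted p of 0.05, with a smallest adjusted p of 0.386. At an unadjusted p under 0.05 it held 503 genes, 4.25%. With 3 libraries per group this does not show that the changes are alike in both kinds of cells.

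**Figure D5:**
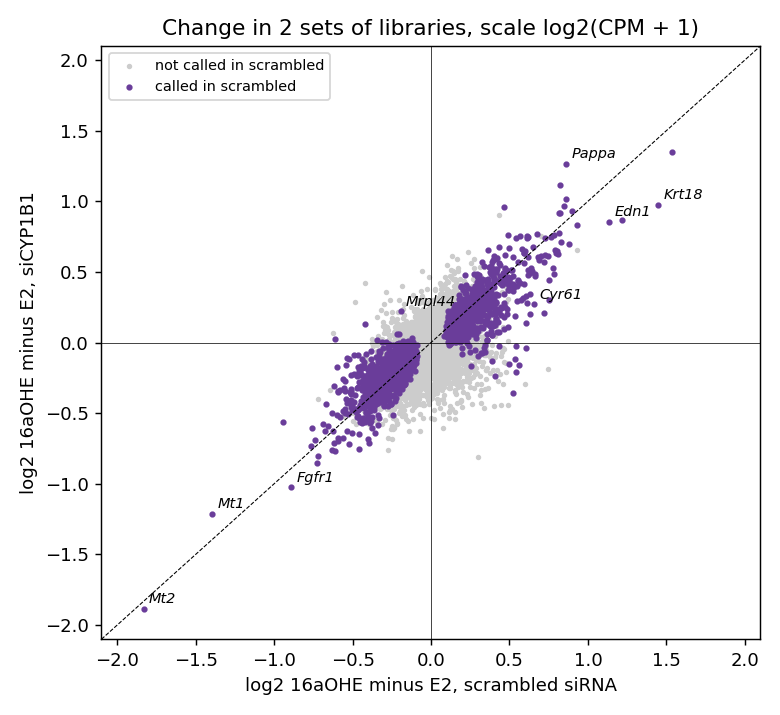
Log2 change of CPM + 1, 16aOHE minus E2, in scrambled siRNA libraries (horizontal) and in siCYP1B1 libraries (vertical), 1 point per tested gene, with genes called in scrambled cells in purple and equality as a dashed line. Mt2, Mt1, Krt18 and Edn1 lie on the same side in both sets, and Mrpl44 is the 1 gene called in both with opposite signs.

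Set against vehicle in scrambled siRNA cells, 16aOHE changed 457 genes (3.86%) and E2 changed 3546 genes (29.9%), 2 comparisons that share the 3 vehicle libraries. For Mt2 the log2 change from vehicle was 0.14 with 16aOHE and 1.97 with E2, and for Mt1 -0.05 and 1.34. For Krt18 it was -0.53 with 16aOHE and -1.98 with E2, and for Mest -0.51 and -1.34. Among the named genes, some lay farther from vehicle with 16aOHE than with E2: Cyr61 had 0.46 with 16aOHE and -0.19 with E2, and Tnfaip3 0.54 and -0.01.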

How the data were processed

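RNA sequencing libraries of 18 samples fall into 6 groups of 3 (scrambled siRNA or siCYP1B1, with vehicle, E2 or 16aOHE). The authors deposited 1 table of 15288 genes in CPM, with an offset of 1e-04 in every value, so that columns sum to 1000001.5. Per the submitters' processing notes the tools were TopHat2 and Partek and the genome build was mm10. Their versions, the gene models, the strand setting and filters were not given in the sources used here. Reads of overlapping or antisense genes therefore cannot be told apart. Low values fall on steps of 1 read, and 93.5% to 93.9% of values from 0.02 to 20 CPM in the 6 libraries were whole within 0.1 reads, so no count test was run. Gene ends are the deposited stop reduced by 1, which equalled the RefSeq end for 56.7% of 14902 matched symbols, against 4.13% as listed.

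Values were taken as log2(CPM + 1), which understates changes of genes near 1 CPM, and limma 3.58.1 (R 4.3.3) was used to fit 1 mean for each of the 6 groups, with a spread shared by all 18 libraries. Benjamini-Hochberg adjustment ran over the 11846 genes that averaged 1 CPM or more in the 6 libraries, with a threshold of 0.05. The script was tested on simulated data. Named genes were Cyp1b1 and the estrogen receptors, the 12 largest log2 changes in each direction among called genes whose libraries did not overlap and whose mean was at least 5 CPM (predicted genes, small RNAs and pseudogenes left out), and up to 4 called genes per list. From lists with at most 1 called gene, the genes with the highest mean CPM were also named. Marker levels and uncalled counterparts outside this rule (Upk3b, Wt1, Msln, Pdgfra, Txnrd1, Psat1, Phgdh, Bmpr2) were chosen after their values were seen. The comparison, its genes and the 32 lists were chosen with earlier results of these data known, so counts over lists are descriptions and no set test was run. Alternatives were pseudocounts of 0.1 and 5, other filters, median-of-ratios and quantile scaling, fits to 6 or 9 libraries, and leaving out each library.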

Additional observations from a re-analysis of the deposited data

How the results depend on the processing

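The count of 2179 called genes stayed within 1.5 times under all 15 alternatives: 2166 and 2210 with pseudocounts of 0.1 and 5, 2008 with no filter on low values, 2180 with the minimum set over all 18 libraries, 2105 with a minimum of 10 CPM, 2117 with median-of-ratios factors, 1976 with quantile normalization, 1793 in a fit to the 6 libraries and 1967 in a fit to the 9 scrambled siRNA libraries. Leaving out 1 library gave 1602 to 1805. Of the 108 named genes called, 80 kept the call in all 15 alternatives, 28 lost it in at least 1, of which 12 only by leaving out a library, and 0 changed sign. Tpm2, not called as reported, passed in 1 alternative. The interaction with siRNA gave 0 genes in the 13 alternatives that hold siCYP1B1 libraries. Acat2, Msmo1, Cox6c, Ndufb9, Psmb4, Psmb5 and Psmb6, among the called genes of the cholesterol, oxidative phosphorylation and proteasome lists, each lost the call when 1 library was left out, with adjusted p-values (limma) from 0.0505 for Psmb5 without 16aOHE library 3 to 0.225 for Ndufb9 without E2 library 3. So did Id2, Fst and Smad6 of the BMP list, with 0.0814, 0.0769 and 0.256 without 16aOHE library 3. The counts given for other lists include Dcn, Notch3, Mcm6, Rrm1, Uhrf1, Mki67, Gstm1, Gdf15, Elovl6, Igfbp5, Per1, Lif and Ccl5, which also lost the call when 1 library was left out, such as Mki67 with 0.105 without 16aOHE library 1 and Gstm1 with 0.173 without 16aOHE library 3. The cause of these lost calls was not tested. No paired analysis was possible because the labels carry no replicate numbers, and the library numbers used here only name libraries in the order of deposit. Libraries with the same number did deviate together to some degree: the correlation of their deviations from the group means had a median of 0.12 over 45 pairs from different groups (-0.06 to 0.35), and of 0.26 over the 15 pairs of libraries numbered 1, against -0.09 over 90 pairs with different numbers. What these libraries share is not given in the labels, and the p-values take no account of it. Genes below 1 CPM rest on fewer than about 38.5 reads per library, and differences in them were not examined.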

Other observations

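Lysosomal genes were lower in 16aOHE cells than in E2 cells as widely as any list described above. The family was written after values of these data had been seen, so its counts are a description. Of 40 tested hydrolases and membrane proteins of the lysosome, 0 were higher and 31 lower (median log2 change -0.24, with 30 lower after median-of-ratios rescaling and 31 after quantile normalization), where 11.6% of all tested genes were lower. The changes were small and even. The sialidase Neu1 averaged 64.8 ± 1.31 CPM in 16aOHE cells and 90.7 ± 6.05 CPM in E2 cells (SD, n = 3 each, log2 change -0.48). The calcium channel Mcoln1 averaged 52.1 ± 2.6 and 71.9 ± 1.68 CPM (-0.46) and the membrane protein Lamp1 1030 ± 21.0 and 1195 ± 55.7 CPM (-0.21), in the same order. In siCYP1B1 cells the log2 changes were -0.49 for Neu1, -0.54 for Mcoln1 and -0.18 for Lamp1.

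Genes of the proton pump that acidifies lysosomes showed 12 of 19 lower and 0 higher (12 lower and 1 higher after median-of-ratios rescaling, 11 lower and 0 higher after quantile normalization), with Atp6v0b at 114 ± 7.47 CPM in 16aOHE cells and 152 ± 1.03 CPM in E2 cells. Autophagy genes had 9 of 21 lower and 0 higher, among them the cargo receptor Sqstm1 with 572 ± 22.1 and 755 ± 15.6 CPM (log2 change -0.40) and the mitophagy kinase Pink1 with 11.3 ± 0.664 and 17.7 ± 1.61 CPM (-0.60). Of the Vps genes of endosome traffic, 13 of 32 were lower and 0 higher. In the other direction, 7 of 13 tubulins and 5 of 14 semaphorins were higher and 0 lower, such as Tubb2b with 17.2 ± 0.83 and 11.4 ± 0.676 CPM and Sema3d with 177 ± 2.95 and 133 ± 7.51 CPM in 16aOHE and E2 cells. Some tubulin genes are near-identical to each other, so reads may have been split between those. By contrast, 0 of 29 Mediator subunits were called (1 was higher after quantile normalization).

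Mrpl44, which encodes a protein of the mitochondrial ribosome, was the 1 gene called in opposite directions in the 2 siRNA sets. It averaged 21.7 ± 1.26 CPM in 16aOHE cells and 24.9 ± 1.02 CPM in E2 cells with scrambled siRNA (log2 change -0.19, limma adjusted p = 0.0282), while with siCYP1B1 its log2 change was 0.22, and the difference between the sets had an adjusted p of 0.386.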
